A study of Homo sapiens with 36 samples.

Results

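The comparison set BEAS-2B cells held for 4 h in 800 µM copper sulphate against the same line held for 2 h, on 2 Illumina bead arrays at each time, 4 of the 36 arrays of the series. Members were taken from the array labels alone. The question was which transcripts were still moving between 2 and 4 h of copper: those that went on rising or falling, those that turned over after an early change, and those that started to move only after 2 h. BEAS-2B is an immortalized line from human bronchial epithelium; the copper sulphate was added in its medium. Untreated BEAS-2B arrays of 2, 4 and 6 h (4 arrays, 1 of them at 2 h and 1 at 4 h) gave the untreated level over the same hours. A further 2 untreated arrays are labelled 0 h and stand outside that baseline, and their values are given where they change how a 2 h level reads. HCT116, a human colorectal carcinoma line, was treated with 1400 µM copper sulphate for the same hours and served as the second line. The dose differed between the lines, so line and dose cannot be told apart.

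Excess copper binds protein thiols, promotes oxidation and damages the folding of proteins. Cells answer it through several known programmes: MTF1 drives metallothioneins, which bind copper and zinc, HSF1 drives heat shock chaperones, NRF2 drives antioxidant enzymes, and ATF4 drives the genes of the integrated stress response. Immediate early genes such as EGR1 and FOS respond to kinase signals within the hour and their RNAs are short-lived, so that they are known for brief peaks.

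Whether the 2 arrays of a time stand for separate cultures is not in the labels, so the spread behind each p-value may be technical. That spread was pooled over the replicate arrays of every group in both lines. With a fit on the 4 arrays alone, 353 genes were called in place of 893. Between the 2 arrays of a time, Pearson's r over 14678 genes was 0.994 at 2 h and 0.993 at 4 h. The arrays detected 42.4% and 42.8% of probes at 2 h and 41.1% and 41.9% at 4 h. On the leading principal component of the BEAS-2B arrays (64.3% of the variance) the untreated arrays lay between -42.9 and -35.4, the 2 h copper arrays at -17.5 and -19.1, the 4 h arrays at 7.85 and 5.78 and the 6 h arrays at 22.9 and 23.1, in the order of time in copper. Of 10 epithelial markers, 5 were detected on all 4 arrays (KRT7, KRT8, KRT18, EPCAM and ELF3), while KRT19, CDH1 and CLDN7 were detected on none. Of 12 mesenchymal markers, 10 were detected on all 4. Of 6 basal airway markers with a probe, ITGA6 and DST were detected on all 4 arrays and KRT5, KRT14, KRT15 and NGFR on none. No colon marker was detected on all 4 arrays. Of 9 leukocyte markers with a probe, CD14 and HLA-DRA were detected on all 4 and PTPRC, CD3E and CD3D on none. The summed log2 signal of the epithelial list was 61.4 to 61.9 at 2 h and 62.0 to 62.1 at 4 h, and that of the mesenchymal list 107.3 to 107.7 and 106.3 to 106.6. No member of either list was called between the times, and no colon or leukocyte marker was. Of 4 tested basal airway markers 1 was called, DST, which rose. DST passed in 10 of 14 alternative settings, with changes from 0.18 to 1.17.

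Between 2 and 4 h of copper, 893 of 14678 tested genes (6.08%) changed: 404 rose (2.75%) and 489 fell (3.33%), at an adjusted p below 0.05 in limma with Benjamini-Hochberg adjustment. Of these, 91 rose (0.62%) and 66 fell (0.45%) by 2-fold or more. The shares of 2.75% and 3.33% are the background for the counts of gene lists below. The largest rises were in the heat shock genes HSPA7 and HSPA6, the metalloproteinase MMP3, the stress-induced SESN2 and the phosphodiesterase PDE4D, and the largest falls in HPS6, E2F2, FBXO5 and IMP3. The median change over all genes was -0.02 on the log2 scale. In a larger set, 3394 genes (23.1%), both 4 h arrays lay above both 2 h arrays, and in 4218 (28.7%) both lay below. The count of calls rests on both arrays of each time: without replicate 1 or 2 of the 2 h arrays it was 438 or 396, and without replicate 1 or 2 of the 4 h arrays 376 or 462, of which 361 to 432 were among the 893. In untreated cells the same hours could be compared on 1 array each. That comparison has no spread of its own, and the lone arrays were assumed to vary like the other groups. It called 0 genes (0%) in limma, with 649 at an unadjusted p below 0.05, and up to 12 under another setting of the processing. With the untreated change subtracted, under the same assumption, 145 genes (0.988%) were called, 85 higher (0.579%) and 60 lower (0.409%).

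**Figure D1:**
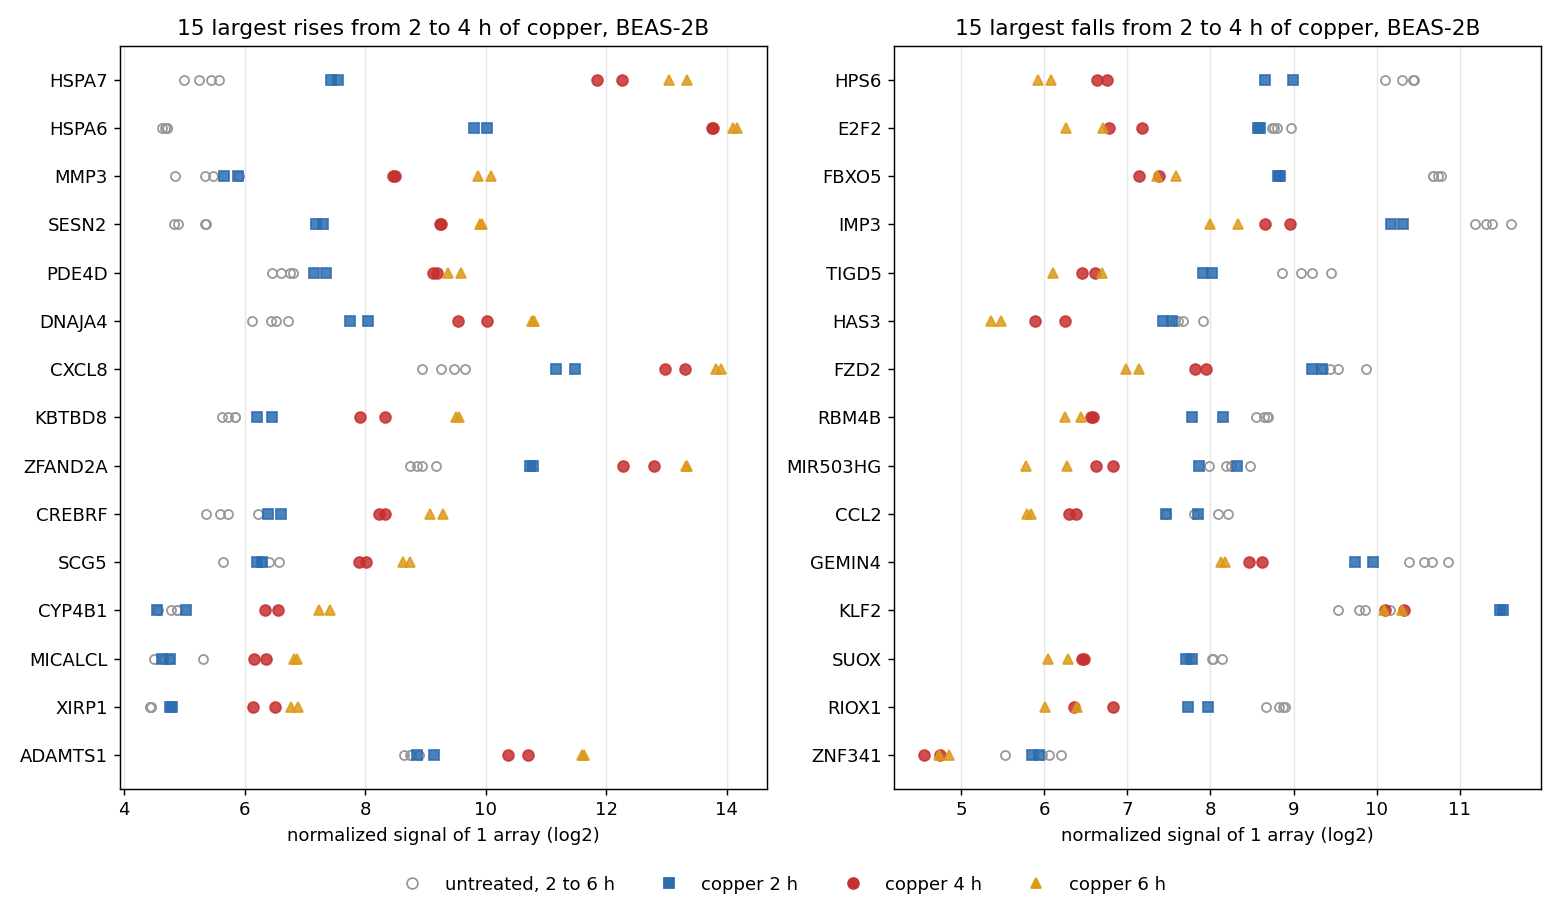
Normalized log2 signal of each BEAS-2B array (x axis) for the 15 largest rises (left) and the 15 largest falls (right) from 2 to 4 h of copper. Open circles are untreated arrays of 2 to 6 h, squares are copper 2 h, filled circles copper 4 h and triangles copper 6 h. Genes were chosen among those whose 2 h and 4 h copper arrays do not overlap, so that separation is given by the choice.

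Heat shock genes led the rises. Of 29 measured heat shock proteins and co-chaperones, 17 rose and none fell, with a median change of 0.59 against -0.02 over all genes. Leaving out 1 array of the 4 gave 14 to 15 risers. HSPA6 (probe ILMN_1806165, chromosome 1), an HSP70 that is almost silent without stress, had a log2 signal of 10.03 and 9.80 at 2 h and 13.77 and 13.76 at 4 h. The groups lay far apart, and HSPA6 rose 14.5-fold (log2 3.85 ± 0.12 SE, n = 2 arrays a time, limma adjusted p = 1.09e-12). It was not detected on any of the 4 untreated arrays, and its 4 h level was at least 541-fold above the lowest detectable signal there. HSPA7 (ILMN_3235964, chromosome 1), a close relative of HSPA6 annotated as a pseudogene, had signals of 7.44 and 7.54 at 2 h and 12.26 and 11.85 at 4 h, a rise of 4.57 ± 0.20 (adjusted p = 1.00e-10). Because the genes are nearly identical, the HSPA7 probe may read HSPA6 RNA in part, and the rise cannot be assigned to HSPA7 alone.

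Co-chaperones rose with them. DNAJB1, an HSP40 that loads clients onto HSP70, had signals of 12.37 and 12.31 at 2 h and 13.89 and 13.79 at 4 h, a rise of 2.83-fold (log2 1.50 ± 0.11, adjusted p = 3.78e-07). DNAJA4, another HSP40, rose by 1.89 ± 0.16 (adjusted p = 1.77e-06), and ZFAND2A, a zinc finger protein of the proteasome, by 1.78 ± 0.15 (adjusted p = 1.76e-06). BAG3, which hands HSP70 clients to autophagy, went from 12.19 and 12.05 to 13.31 and 13.07, and HSPH1, an HSP70 nucleotide exchange factor, from 13.18 and 13.25 to 13.83 and 13.91. All of these had already been above the untreated level at 2 h. The small heat shock proteins differed in timing. CRYAB had signals of 7.83 and 7.70 at 2 h, within the untreated range of 7.32 to 8.01, and 9.06 and 9.07 at 4 h. HSPB1 rose only from 13.16 and 13.02 to 13.52 and 13.43 (log2 0.38 ± 0.11, adjusted p = 0.0378), and HSPB8 from 5.72 and 6.04 to 7.30 and 7.19.

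The inducible HSP70 genes HSPA1A and HSPA1B had made most of their rise by 2 h. HSPA1A stood 2.69 above untreated at 2 h, with signals of 13.54 and 13.32, and at 14.04 and 13.90 at 4 h, a change of 0.54 ± 0.17 that missed the threshold (adjusted p = 0.064). HSPA1B, whose sequence is nearly the same, so that the probes may share signal, rose by 0.62 ± 0.11 (adjusted p = 0.00219). These signals lay near the top of the scale, on which the highest deposited value was 14.49. The constitutive chaperones HSP90AA1 (14.02 and 14.00 at 2 h, 13.93 and 13.98 at 4 h) and HSPA8 (13.60 and 13.72, then 13.65 and 13.75) were not called.

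RefSeq promoter windows (250 bases before to 50 after the gene start, GRCh38.p14) were matched to 11508 of the tested genes. A row of 3 heat shock units (GAA, TTC and GAA, with NN between neighbours, read on both strands) was present in 42 of them (0.365%), in 5 of 305 risers (1.64%) and in 0 of 405 fallers (0%). The 5 risers with it were HSPA6, CHORDC1, DNAJB6, ABHD3 and GLI2. In the heat shock list it was in 5 of 25 windows (20%), and among the risers of that list in 3 of 14 (21.4%), a similar share. Most of the 42 carriers were not called, among them the chaperone genes HSPA8, DNAJA1 and SERPINH1, with changes of 0.05, 0.11 and 0.18. A match describes the letters only, and no match says only that these letters are not in this window. Of the risers with the row, the windows of 3 chaperone genes are shown, with the matched units in capitals.
HSPA6, chr1:161524290-161524589, plus strand: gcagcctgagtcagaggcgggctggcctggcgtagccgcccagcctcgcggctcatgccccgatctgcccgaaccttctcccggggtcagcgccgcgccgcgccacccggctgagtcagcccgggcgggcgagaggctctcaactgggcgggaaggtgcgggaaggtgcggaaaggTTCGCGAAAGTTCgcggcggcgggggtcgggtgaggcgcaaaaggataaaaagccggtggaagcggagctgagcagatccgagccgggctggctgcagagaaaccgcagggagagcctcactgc
CHORDC1, chr11:90223000-90223299, minus strand: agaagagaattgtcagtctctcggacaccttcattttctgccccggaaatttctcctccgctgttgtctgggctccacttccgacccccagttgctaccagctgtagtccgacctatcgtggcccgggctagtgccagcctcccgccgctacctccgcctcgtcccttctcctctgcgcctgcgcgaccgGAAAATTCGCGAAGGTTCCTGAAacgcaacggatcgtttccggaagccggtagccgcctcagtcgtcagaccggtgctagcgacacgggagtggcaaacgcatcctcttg
DNAJB6, chr7:157336754-157337053, plus strand: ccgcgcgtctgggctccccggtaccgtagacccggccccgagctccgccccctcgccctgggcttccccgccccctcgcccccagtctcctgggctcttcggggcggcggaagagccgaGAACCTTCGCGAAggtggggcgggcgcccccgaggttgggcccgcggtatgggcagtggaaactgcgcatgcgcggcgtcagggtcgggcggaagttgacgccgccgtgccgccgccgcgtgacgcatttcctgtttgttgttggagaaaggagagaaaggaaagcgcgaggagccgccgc

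CHORDC1, an HSP90-binding protein whose window holds 3 overlapping matches on either strand, had signals of 9.83 and 9.86 at 2 h and 11.07 and 10.99 at 4 h, a 2.27-fold rise on the probe used (log2 1.19 ± 0.13, adjusted p = 2.92e-05). Its other probe was at -0.55, and the mean of the probes gave 0.32 (adjusted p = 0.491), so the probes disagree on CHORDC1. DNAJB6, an HSP40 that keeps aggregation-prone proteins soluble, stood at 11.32 and 11.19 at 2 h, 0.20 above untreated and not called, and at 12.32 and 12.41 at 4 h. It rose by 1.11 ± 0.11 (adjusted p = 1.17e-05). HSPA6 and CHORDC1 were thus above untreated at 2 h already, while DNAJB6 rose only after it. The remaining carriers were smaller risers: ABHD3, a phospholipase, changed by 0.84 and GLI2, a Hedgehog transcription factor, by 0.77. Among other motifs, the AP-1 site TGANTCA was in 9.18% of riser windows, 3.46% of faller windows and 4.94% of all. For the CEBP-ATF core TGATGNAA the shares were 4.92%, 1.73% and 2.08%. The heat shock pair GAANNTTC was in 7.54%, 4.44% and 4.87%, and the cAMP response element TGACGTCA in 4.59%, 3.46% and 3.06%. The E2F site TTTCGCGC was in 1.31%, 1.98% and 0.999%, and the CCAAT box in 36.1%, 42.2% and 36.8%. Whether any of these shares differ was not tested.

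Genes of metal handling moved less. Of 8 measured metallothioneins, 4 rose and none fell, with a median of 0.51. The same list changed by a median of 0.61 between the untreated arrays of 2 and 4 h, and 0 of 8 were called once that change was subtracted. Leaving out 1 array gave 1 to 3 risers. MT1X had signals of 12.67 and 12.58 at 2 h and 13.44 and 13.50 at 4 h, a rise of 0.84 ± 0.13 (adjusted p = 0.000474), on top of 2.44 above untreated at 2 h. MT1X was at 9.77 on the untreated array of 2 h and 10.19 on that of 4 h. MT2A, the most studied human metallothionein, was already at 13.68 and 13.66 at 2 h and stood at 13.94 and 13.92 at 4 h (adjusted p = 0.367). At 4 h MT1X and MT2A lay near the top of the scale, on which the highest deposited value was 14.49, and whether that limited their rise was not tested. Metallothionein genes are alike in sequence, and their probes may share signal.

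The MT1X promoter window held 4 matches to the metal response element cores TGCACNC or TGCGCNC, read on both strands, and is shown with them in capitals. These short cores were in 37.1% of all windows, 35.7% of those of risers and 40.7% of those of fallers.
MT1X, chr16:56682220-56682519, plus strand: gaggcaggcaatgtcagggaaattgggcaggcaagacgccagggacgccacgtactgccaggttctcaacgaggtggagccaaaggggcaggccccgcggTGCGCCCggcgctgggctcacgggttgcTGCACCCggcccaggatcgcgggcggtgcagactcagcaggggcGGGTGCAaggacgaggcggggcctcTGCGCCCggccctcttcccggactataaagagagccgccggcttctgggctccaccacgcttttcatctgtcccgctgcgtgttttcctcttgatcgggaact

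Of 19 measured genes of copper and zinc transport, 2 rose and 2 fell (2.75% and 3.33% of all genes). SLC30A1, the zinc exporter of the plasma membrane, went from 10.85 and 10.90 to 11.97 and 11.67 (log2 0.95 ± 0.13, adjusted p = 0.000253), and SLC39A14, a metal importer, rose by 0.65. Of the mitochondrial copper chaperones of cytochrome oxidase, SCO2 and SCO1 fell, SCO2 from 7.73 and 7.81 to 6.66 and 6.64 (log2 -1.12 ± 0.25, adjusted p = 0.00941) and SCO1 from 9.92 and 9.76 to 9.28 and 9.45 (adjusted p = 0.00806). Both were below untreated at 2 h already. COX17 and COX11, chaperones of the same enzyme, were not called (adjusted p = 0.992 and 0.971). Without 1 of the arrays 0 to 1 of the transport genes were called as fallen. The copper exporters ATP7A and ATP7B, the importer SLC31A1 and the chaperone ATOX1 were not called. Among 18 genes of lipoylation and iron-sulphur cluster assembly, a group known from copper toxicity, only ISCU passed, close to the 6.08% called among all genes. ISCU fell by 0.38 (adjusted p = 0.0411) and passed in 5 of 14 alternative settings, with its other probe at -0.11.

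NRF2 targets and ATF4 targets both rose in part. Of 23 measured NRF2 targets, 8 rose and none fell (median 0.23), and leaving out 1 array gave 5 to 6 (2.75% of all genes rose). HMOX1, the haem-degrading enzyme, stood at 12.80 and 12.75 at 2 h, 5.94 above untreated, and at 13.72 and 13.72 at 4 h, so that it gained a further 0.94 ± 0.15 (adjusted p = 0.00077). SLC7A11, the cystine importer, went from 7.06 and 7.02 to 8.55 and 8.48 (log2 1.48 ± 0.20, adjusted p = 0.000165). SRXN1, a sulphiredoxin, rose by 1.12, TXNRD1, a thioredoxin reductase, by 0.93 and GCLM, a subunit of the glutathione-making ligase, by 0.91. In each of these the 2 arrays of 4 h lay above both of 2 h.

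Of 28 ATF4 and integrated stress response genes, 10 rose and none fell (median 0.39), and leaving out 1 array gave 6 to 8. SESN2, a sestrin that restrains mTORC1, had signals of 7.30 and 7.19 at 2 h and 9.26 and 9.24 at 4 h, a 4.01-fold rise (log2 2.00 ± 0.22, adjusted p = 2.36e-05). TRIB3, a pseudokinase, went from 11.83 and 11.67 to 13.06 and 12.99, ATF3 from 10.07 and 10.23 to 11.04 and 10.97, and DDIT3, the transcription factor CHOP, from 9.25 and 9.10 to 9.73 and 9.68. ATF3 rose by 0.86 ± 0.12 (adjusted p = 0.000298) while untreated ATF3 went from 7.67 to 6.58, and with that drift subtracted the rise was 1.95 (adjusted p = 0.000209). DDIT3 was close to the threshold (0.53 ± 0.15, adjusted p = 0.0404) and passed it in 8 of 14 alternative settings. ATF4 RNA itself, whose control is mainly translational, was at 13.66 and 13.69 and then 13.67 and 13.66. Of 17 genes of the unfolded protein response of the endoplasmic reticulum, 0 were called in limma. Of 27 proteasome subunits, 0 were called as well. Among all genes 6.08% were called, so few calls could fall in lists of this length.

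The early genes parted ways. Of 21 immediate early and AP-1 genes, 16 had been above untreated at 2 h (913 of all genes, 6.22%, had). In 15 of these 16 both 2 h copper arrays also lay above both untreated arrays of 0 h, and EGR1 was the exception. Between 2 and 4 h 6 of the 21 rose further and 2 fell, and without 1 array 3 to 4 rose and 1 to 2 fell. EGR1 (chromosome 5), a zinc finger factor of the serum response, was at 11.63 and 11.39 at 2 h and 10.50 and 10.58 at 4 h, a fall of 1.96-fold (log2 -0.97 ± 0.11, adjusted p = 4.07e-05). At 2 h it was 2.35 above the untreated arrays of 2 to 6 h, but below the untreated arrays of 0 h, at 12.27 and 12.20, so that whether EGR1 had first risen depends on the baseline. ZFP36, which speeds the decay of AU-rich RNAs, fell from 10.43 and 10.58 to 9.86 and 9.86 (adjusted p = 0.00491). At 4 h both were still above the untreated level of 2 to 6 h, EGR1 by 1.38 and ZFP36 by 1.50 (11% of all genes were above untreated at 4 h).

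The FOS family went the other way. FOSB rose from 9.99 and 9.78 to 10.99 and 10.83 (log2 1.02 ± 0.15, adjusted p = 0.000357), and FOS from 8.22 and 7.96 to 8.53 and 8.71 (0.53 ± 0.15, adjusted p = 0.0448, past the threshold in 7 of 14 alternative settings). Untreated FOS was at 7.73 and 7.93 at 0 h and at 4.57 to 5.12 from 2 to 6 h, so its 2 h copper level was close to that of 0 h. FOSL1 started to rise only after 2 h, from 8.25 and 8.10 to 8.93 and 8.88, against 8.04 to 8.28 untreated. JUN had signals of 12.08 and 12.11 and then 12.11 and 11.99, and the change of -0.04 ± 0.13 was not called (adjusted p = 0.951). EGR3 stood at 6.98 and 6.63 and then 6.49 and 6.52 (adjusted p = 0.526).

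Some feedback genes and cytokines rose. Of 15 dual-specificity phosphatases and ERK feedback genes, 5 rose and none fell, and 2 rose when any 1 array was left out. DUSP2, a nuclear MAP kinase phosphatase, went from 5.86 and 5.93 to 7.51 and 7.13 (log2 1.43 ± 0.18, adjusted p = 8.62e-05). Of 23 NF-kB genes and cytokines, 5 rose and 1 fell, and without 1 array 3 to 4 rose and 1 fell. CXCL8, the neutrophil chemokine interleukin-8, went from 11.16 and 11.48 to 13.31 and 12.96, a 3.52-fold rise (log2 1.82 ± 0.17, adjusted p = 5.62e-06), and IL11 from 10.38 and 10.58 to 11.85 and 11.69. CXCL1 rose by 1.28 and CXCL2 by 0.99. IL6, at 6.15 and 6.34 at 2 h within the untreated range, rose to 7.14 and 6.94 (0.80 ± 0.14, adjusted p = 0.00212). CCL2, the monocyte chemokine, fell from 7.47 and 7.85 to 6.29 and 6.38 (log2 -1.32 ± 0.18, adjusted p = 0.00025), in the opposite direction to the CXC chemokines. NFKBIA, the inhibitor of NF-kB, was at 9.69 and 9.80 and then 8.92 and 9.08, and was not called (adjusted p = 0.0722).

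Each called gene was then set beside its state at 2 h, taken as copper 2 h against the 4 untreated arrays. The state and the later change share the 2 h copper arrays, with opposite sign, so that chance variation on those arrays feeds the turning-over and returning classes. By state, 913 genes were above untreated at 2 h (6.22%) and 739 below (5.03%). By class, 175 genes were still rising, 213 started to rise, 36 turned over after an early rise, 342 started to fall, 111 were still falling and 16 returned after an early fall. A start means only that the gene was not called against untreated at 2 h, and a smaller or less certain change by then is possible. Of the 913 genes up at 2 h, 702 did not change further by the test. Of the 156 up by 2-fold or more at 2 h (1.06%), 67 rose further, 6 fell and 83 were not called. Leaving out 1 array gave 78 to 114 still rising, 89 to 124 starting to rise, 11 to 17 turning over, 113 to 174 starting to fall, 30 to 69 still falling and 3 to 7 returning. With only the untreated array of the same hour as baseline, 10 genes turned over and 6 returned. Against the untreated arrays of 0 h, both 2 h copper arrays lay higher in 31 of the 36 turning-over genes and lower in 4, and lower in 11 of the 16 returning genes and higher in 1. This comparison was added after seeing the data.

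**Figure D2:**
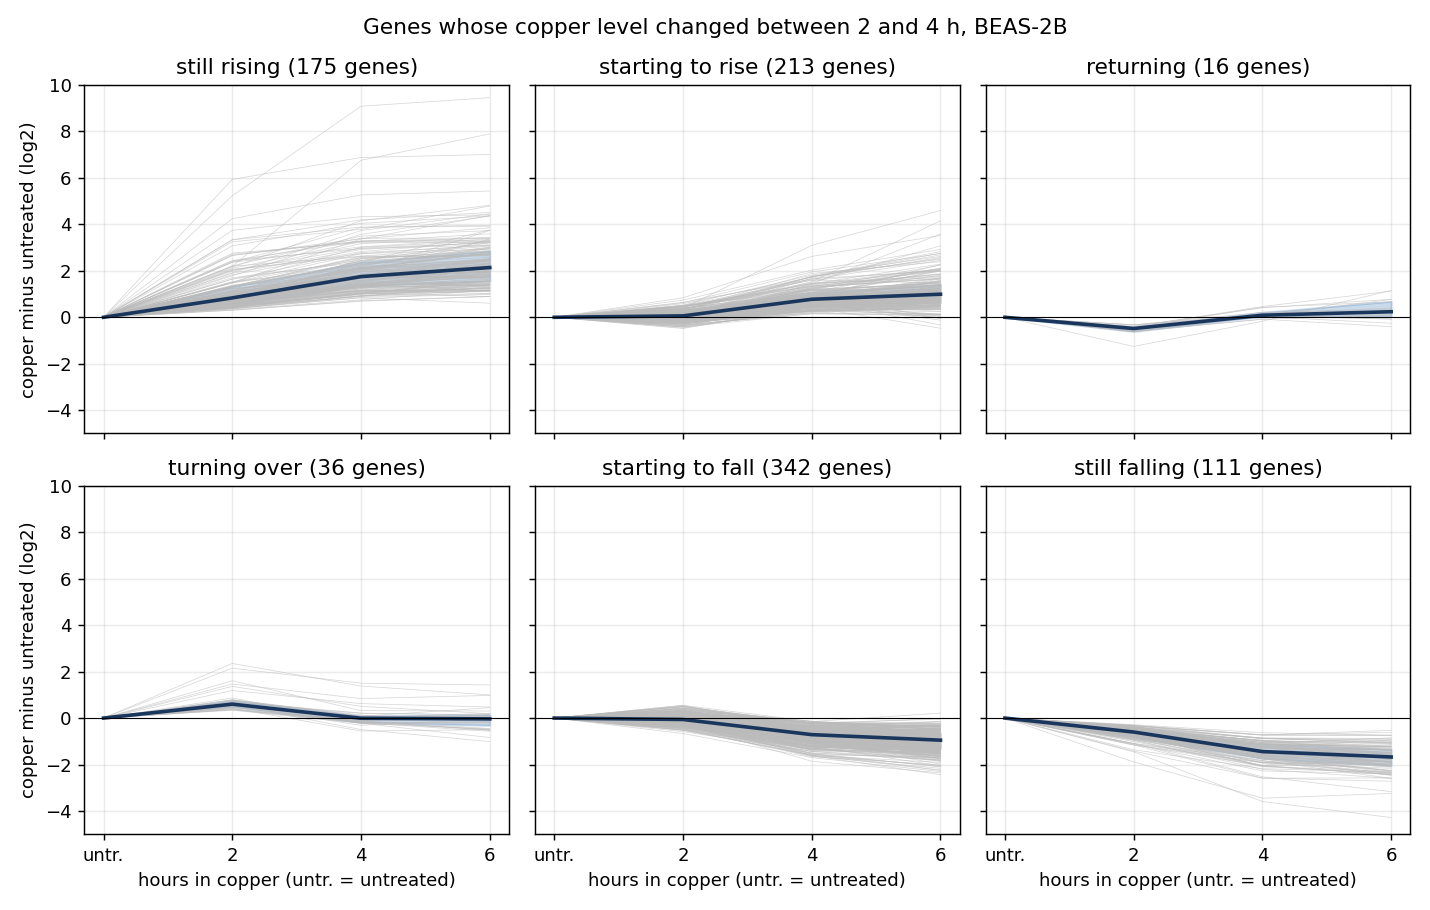
Copper minus untreated (log2, y axis) at 2, 4 and 6 h for the 6 classes of genes called between 2 and 4 h. Thin lines are genes, the thick line is the class median and the shaded band is the interquartile range. The median of the still rising class went from 0.83 to 1.75 between 2 and 4 h, and that of the turning-over class from 0.60 to -0.01.

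Among the genes that started to rise, MMP3, a stromelysin that cleaves matrix proteins, was highest. Its signals were 5.66 and 5.89 at 2 h and 8.46 and 8.48 at 4 h, a 6.51-fold rise (log2 2.70 ± 0.20, adjusted p = 3.78e-07). Untreated MMP3 was at 4.83 at 2 h and 5.90 at 4 h, and with that difference of 1.07 subtracted the rise was 1.64 (adjusted p = 0.0315). SCG5, a secretory granule chaperone, rose from 6.28 and 6.20 to 8.01 and 7.89, but untreated SCG5 went from 5.65 to 6.56 and the subtracted rise of 0.79 was not called (adjusted p = 0.178). CREBRF, a regulator of CREB3 and of the glucocorticoid receptor, rose from 6.60 and 6.39 to 8.23 and 8.32. At 2 h it already stood 0.84 above untreated, which missed the threshold (limma adjusted p = 0.0651), so a start after 2 h is not shown for CREBRF. XIRP1, an actin-binding protein, was not detected on either 2 h array, at 4.80 and 4.75. It reached 6.50 and 6.13 at 4 h, 2.90-fold above those undetected signals (adjusted p = 7.83e-06). MICALCL was likewise undetected at 2 h and was at 6.15 and 6.35 at 4 h, at least 2.91-fold higher (adjusted p = 0.000105). CYP4B1, a lung cytochrome P450, was at 4.55 and 5.02, with 1 of the 2 arrays above detection, and then at 6.33 and 6.55 (adjusted p = 0.00627). ADAMTS1, a matrix protease, rose from 8.86 and 9.14 to 10.70 and 10.36.

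In the still rising class outside the stress lists, PDE4D, which degrades cyclic AMP, went from 7.14 and 7.35 to 9.12 and 9.20 (log2 1.91 ± 0.18, adjusted p = 5.43e-06), and KBTBD8, an adaptor of a ubiquitin ligase, from 6.45 and 6.21 to 8.33 and 7.91. At 2 h each stood about 0.6 above untreated (0.61 and 0.56), so most of their rise fell after 2 h. CLK1, a kinase of splicing factors, went from 10.20 and 10.38 to 11.55 and 11.50, and VEGFA, the vascular growth factor, from 7.81 and 7.99 to 9.02 and 9.06. In all 4 genes the 4 h arrays lay clear of the 2 h arrays.

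The turning-over class was led by KLF2 (chromosome 19), a Krüppel-like factor, which had signals of 11.52 and 11.48 at 2 h, 1.61 above untreated, and 10.10 and 10.33 at 4 h. The fall was 2.44-fold (log2 -1.29 ± 0.12, adjusted p = 4.11e-06), and KLF2 was the only gene of the class still called with the untreated change subtracted (adjusted p = 0.0269). F3, tissue factor, which starts clotting, went from 11.72 and 11.99 to 11.13 and 10.85 (log2 -0.86 ± 0.16, adjusted p = 0.00301), and its other probe was at -0.42. KIT, a receptor kinase, fell from 8.72 and 8.96 to 7.49 and 8.05, ZNF700, a zinc finger protein, from 8.83 and 8.81 to 7.96 and 7.72, and HES1, a Notch target, from 7.11 and 6.92 to 6.44 and 6.22. KIT was already at 9.36 and 9.44 on the untreated arrays of 0 h, above its 2 h copper level, and went from 8.66 to 7.93 between the untreated arrays of 2 and 4 h, and with that subtracted its change of -0.34 was not called (adjusted p = 0.842). KIT and ZNF700 were called below the untreated level at 4 h, at -0.49 and -0.56, while HES1 was at 0.08 and not called. SQLE, squalene epoxidase of cholesterol synthesis, fell by 0.48 (adjusted p = 0.0304) from 0.70 above untreated. It was the only called member of 17 cholesterol genes, close to the 6.08% called among all genes.

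Few genes came back from an early fall. PPP1R3C, which targets a phosphatase to glycogen, was at 7.28 and 7.41 at 2 h, 1.26 below untreated, and at 8.52 and 8.34 at 4 h, close to the untreated range of 8.37 to 8.77. It rose by 1.09 ± 0.15 (adjusted p = 0.000204) and reached 9.71 and 9.79 at 6 h, above untreated. AKIRIN1 went from 7.73 and 7.40 to 8.43 and 8.48 on the probe used, and was called with the untreated change subtracted as well (adjusted p = 0.0076). Its 3 probes ran from 0.0080 to 0.89, and at 0 h untreated AKIRIN1 was at 7.26 and 7.31, below its 2 h copper level. MEDAG, a gene of adipocyte differentiation, GINS4, of the replicative helicase, and RFTN1, a lipid raft protein, rose by 0.88, 0.85 and 0.80.

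The falling genes were led by HPS6 (chromosome 10), a subunit of the BLOC-2 complex of lysosome-related organelles. Its signals were 8.66 and 9.00 at 2 h, down 1.45 from untreated, and 6.63 and 6.75 at 4 h, a fall of 4.40-fold in the 2 h (log2 -2.14 ± 0.18, adjusted p = 1.76e-06). IMP3, of the U3 small nucleolar ribonucleoprotein, fell from 10.17 and 10.32 to 8.66 and 8.95 (log2 -1.44 ± 0.13, adjusted p = 2.99e-06). GEMIN4, of the SMN complex, went from 9.73 and 9.96 to 8.62 and 8.46, RBM4B, an RNA-binding protein, from 8.15 and 7.78 to 6.58 and 6.56, and TIGD5 from 7.90 and 8.02 to 6.61 and 6.45. FADD, the adaptor of death receptors, fell from 8.79 and 8.95 to 7.66 and 7.88 (log2 -1.10 ± 0.19, adjusted p = 0.00164). All of these were already below untreated at 2 h.

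Other falls began after 2 h. FZD2, a Wnt receptor, was at 9.22 and 9.35 at 2 h, against 9.35 to 9.88 untreated, and at 7.81 and 7.95 at 4 h (log2 -1.41 ± 0.17, adjusted p = 7.6e-05). MIR503HG, the host transcript of a microRNA cluster on chromosome X, went from 7.86 and 8.32 to 6.62 and 6.83 (adjusted p = 0.000319). SUOX, sulphite oxidase, went from 7.71 and 7.77 to 6.48 and 6.45. HAS3, a hyaluronan synthase, fell by 1.41 on the probe used (adjusted p = 0.0469) while its other probe was at 0.01, so the probes disagree.

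Many mitosis genes fell. Of 26 mitosis genes, 12 fell and none rose, with a median of -0.47 against -0.02 over all genes. In 23 of the 26 both 4 h arrays lay below both 2 h arrays (28.7% of all genes). Leaving out 1 array gave 4 to 8 fallers. TOP2A, the topoisomerase of mitotic chromosomes, went from 12.04 and 11.88 to 11.20 and 11.12 (log2 -0.80 ± 0.14, adjusted p = 0.00204), and BUB1B, of the spindle checkpoint, from 8.31 and 8.28 to 7.43 and 7.42 (-0.87 ± 0.16, adjusted p = 0.00268). CCNB1, the mitotic cyclin, fell from 10.83 and 10.94 to 10.22 and 10.09, KIF20A, a kinesin of cytokinesis, by 0.73, AURKA, a spindle kinase, by 0.67, and CCNA2 by 0.64. At 2 h, 4 of the 26 had been below untreated, and at 4 h 22 were (14% of all genes were below at 4 h). In bulk RNA, fewer cells in a phase and less RNA per cell cannot be told apart.

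Of the 26 measured members of the DNA replication list, 4 fell and none rose (median -0.12), where 3.33% of all genes fell. GINS4, of the replicative helicase, was not on that list and rose by 0.85. FEN1, the flap endonuclease, went from 11.99 and 12.01 to 11.00 and 11.11 (log2 -0.95 ± 0.10, adjusted p = 1.3e-05), and MCM10, a replication initiation factor, fell by 0.78. PCNA, the sliding clamp, fell by 0.60 on the probe used and by 0.17 on its other probe. Of 19 E2F factors and G1/S cyclins, 4 fell and none rose, with 2 to 3 fallers when an array was left out. E2F2, an activator of S phase genes, went from 8.57 and 8.59, close to the untreated 8.75 to 8.97, to 6.78 and 7.17 (log2 -1.60 ± 0.16, adjusted p = 7.51e-06). FBXO5, an inhibitor of the anaphase-promoting complex, went from 8.81 and 8.84 to 7.14 and 7.39 on the probe used (log2 -1.56 ± 0.19, adjusted p = 5.66e-05) and by -0.56 on its other probe. E2F1 was not called and the 10 measured histone genes had 0 calls in limma (6.08% of all genes were called). Of 26 ribosome biogenesis genes, 4 fell and 1, RRP12, rose, with 1 to 2 fallers when an array was left out (3.33% of all genes fell).

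**Figure D3:**
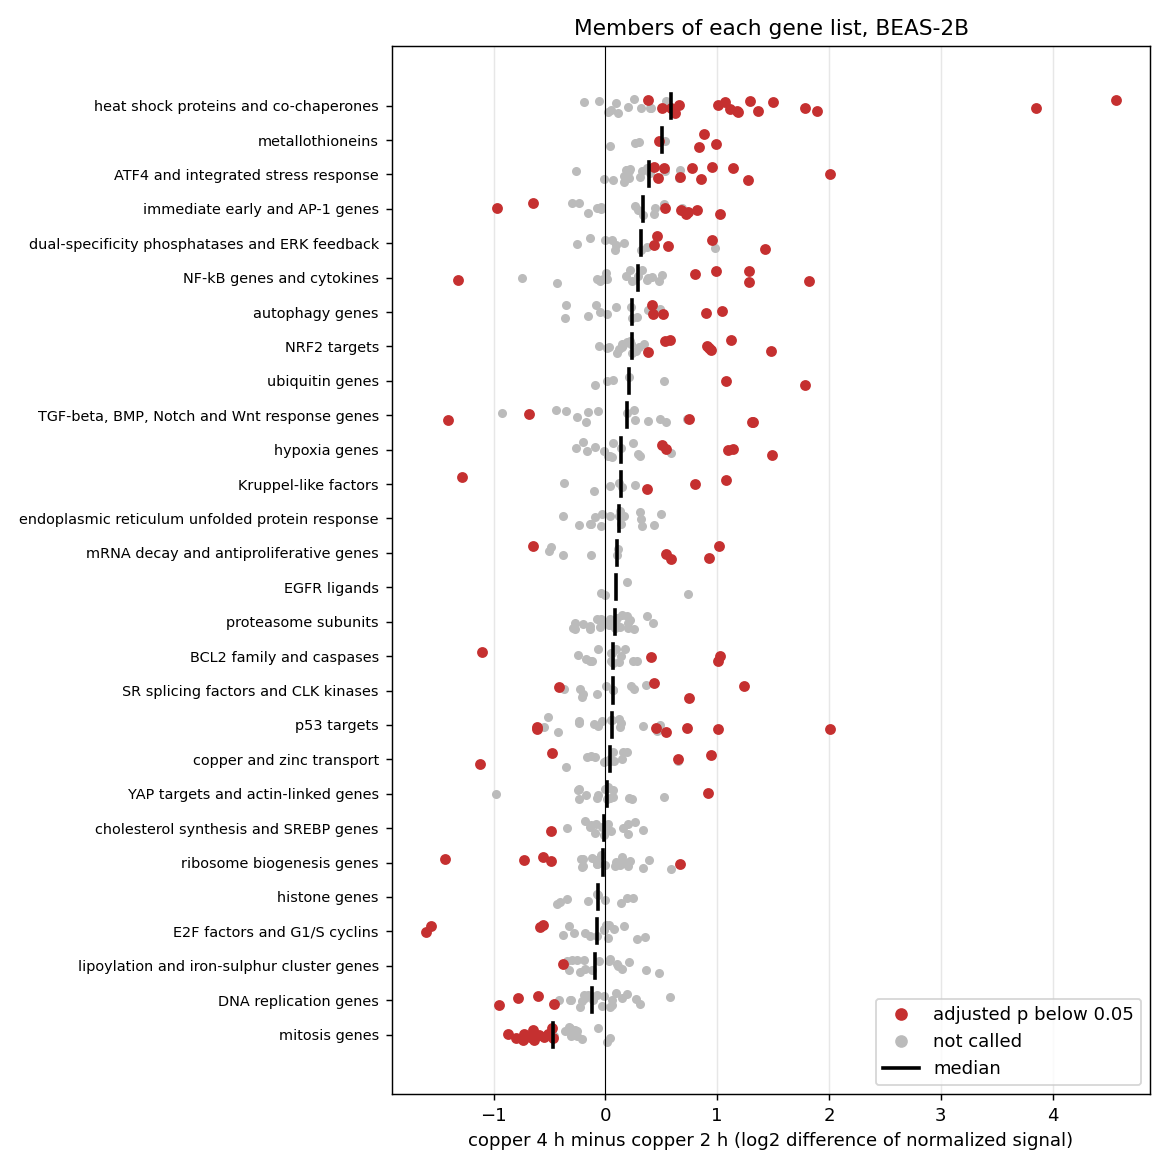
Change from copper 2 h to 4 h (log2, x axis) of each measured member of 28 gene lists, ordered by the list median (black bar). Red points passed an adjusted p below 0.05 and grey points did not. Heat shock genes have the highest median (0.59) and mitosis genes the lowest (-0.47).

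What followed by 6 h was compared on the 2 arrays of 6 h, a comparison that shares the 4 h arrays. Between 4 and 6 h, 85 genes rose (0.579%) and 53 fell (0.361%), against 404 and 489 in the interval before. Leaving out any 1 of the 4 arrays gave 31 (without replicate 2 of 4 h) to 60 (without replicate 1 of 4 h). Matrix metalloproteinases led it. MMP10, another stromelysin, was undetected on both 2 h arrays, reached 6.11 and 5.97 at 4 h, and 8.74 and 8.56 at 6 h (6 h minus 4 h 2.61, adjusted p = 3.32e-08). MMP1, the interstitial collagenase, was at 5.28 and 5.43, then 6.61 and 5.72, then 8.54 and 8.33, so that its arrays of 4 h lay far apart and its rise was called only in the later interval (2.27, adjusted p = 0.00158). RGS2, a brake on G protein signals, was undetected on both 2 h arrays and had signals of 6.23 and 6.00, then 8.44 and 8.08. GADD45G, of the growth arrest family, went from 6.71 and 6.40 to 8.36 and 8.28. By contrast HSPA6 (14.10 and 14.17 at 6 h) and DNAJB1 (13.95 and 13.92) changed by 0.37 and 0.09, not called. Both lay near the top of the scale, on which the highest deposited value was 14.49, and whether that limited their change was not tested. EGR1 was at 10.16 and 10.15 and KLF2 at 10.09 and 10.31, also not called. ACOT12, a thioesterase, was undetected on both 2 h arrays, had signals of 5.78 and 5.42 at 4 h, and was back at 4.73 and 4.49 by 6 h, with the fall called (adjusted p = 0.0112).

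HCT116 at its own dose was compared over the same hours, on arrays shared with no BEAS-2B comparison. There 616 genes rose (4.2%) and 751 fell (5.12%). Of the BEAS-2B risers, 167 also rose in HCT116, which is 41.3% of the 404 and 27.1% of the 616, and 217 fell in both, 44.4% of the 489 and 28.9% of the 751. In the opposite direction, 8 BEAS-2B risers fell and 7 fallers rose in HCT116. The sign was shared by 81.4% of BEAS-2B risers, 87.5% of fallers and 59.5% of all genes. Across the 14678 genes, which are not independent replicates, Pearson's r between the changes was 0.396 and Spearman's rho 0.309. HPS6 fell in both lines, in HCT116 from 10.56 and 10.59 to 7.83 and 7.35. SESN2 rose by 1.93 in HCT116 and by 2.00 in BEAS-2B.

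The difference between the lines passed the test for 264 genes (1.8%), 124 with the higher change in BEAS-2B (0.845%) and 140 with the lower (0.954%). Leaving out any 1 of the 8 arrays gave 129 (without BEAS-2B 4 h replicate 2) to 193 (without HCT116 4 h replicate 1). HSPA1A was lowest: in HCT116 it went from 5.56 and 5.60 to 9.83 and 9.95, a difference of -3.77 ± 0.23 (adjusted p = 9.9e-08). In BEAS-2B it had reached 13.54 and 13.32 by 2 h, near the top of the scale, on which the highest deposited value was 14.49. Whether that limited its further rise in BEAS-2B was not tested. EGR1 rose in HCT116, from 12.36 and 12.23 to 13.12 and 13.04, where it fell in BEAS-2B (difference -1.76 ± 0.16, adjusted p = 6.51e-06). EGR3 rose in HCT116 from 6.97 and 7.15 to 9.87 and 9.44, and ARC, a synaptic immediate early gene, from 6.30 and 6.04 to 9.36 and 9.30. KLF2 was not called in HCT116, at 9.93 and 9.95 and then 10.21 and 10.06 (difference -1.48, adjusted p = 7.01e-05). DDIT3 rose by 2.27 and JUN by 1.07 in HCT116, both with a difference called. In the other direction, MMP3 was undetected on all 4 HCT116 arrays, and SCG5 fell there from 5.52 and 5.04 to 4.39 and 4.60. Because SCG5 was undetected on both HCT116 arrays of 4 h, its fall there is only a bound. BCOR, a transcriptional corepressor, fell in HCT116 from 7.72 and 7.31 to 6.12 and 6.38 while it rose in BEAS-2B from 9.91 and 10.11 to 10.88 and 10.91. The change of HMOX1, SLC7A11, DNAJB1 and CHORDC1 between 2 and 4 h was not called as different between the lines.

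**Figure D4:**
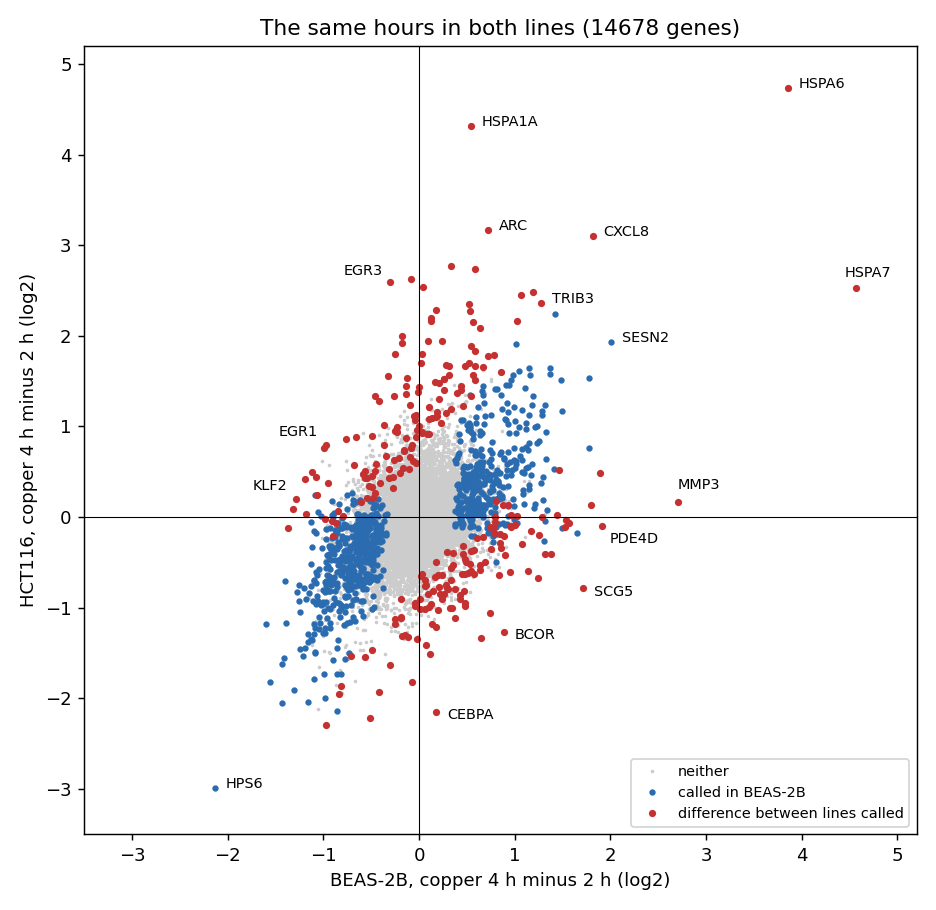
Change from copper 2 h to 4 h in BEAS-2B (x axis, log2, 800 µM) against HCT116 (y axis, log2, 1400 µM), 1 point for each of 14678 genes. Blue points were called in BEAS-2B and red points differed between the lines. HSPA6 and CXCL8 lie high on both axes, HPS6 low on both, and HSPA1A and EGR3 high in HCT116 alone.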

How the data were processed

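RNA of BEAS-2B and HCT116 cells was amplified to biotinylated cRNA and read on 36 Illumina bead arrays. The authors deposited log2 signals (5.89 to 14.49) and a detection p-value per probe, made with BeadStudio per the submitters' processing notes; the sources used here give no version of it. A quantile-normalized log2 table of the same arrays was also deposited by the authors and used as an alternative. The file held 43960 probes, of which 13 with missing values were left out, 29511 had 1 gene symbol and 14449 had none. Columns left unused numbered 0.

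The deposited values were made linear and normalized with neqc of limma 3.58.1 (R 4.3.3): normexp background correction from the detection p-values, an offset of 16, quantile normalization and log2. Probes with a detection p below 0.01 on at least 2 arrays were kept, and each gene was read on its probe of highest mean, giving 14678 genes. One linear model over 22 groups, 8 of them with 1 array, gave every contrast (14 residual degrees of freedom), with eBayes and Benjamini-Hochberg adjustment over all genes. Fold changes are on the scale of the normalized signal. A probe undetected on both arrays of a group was given a lower bound. The number of arrays limits the precision: the median residual SD was 0.21.

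The genes named were the 15 largest rises and falls whose arrays did not overlap, 6 per class, up to 4 called members per list, 5 each way for the difference between lines and for 6 h against 4 h, and a set of 15 always given, in all 132 genes. A further 27 were named after their values were seen. The comparison, the 33 lists and their members were chosen with earlier results of these data known. Alternatives were another normalization, filters, probe summary, offset, arrays in the fit, eBayes setting, baseline, the replicate number as a block and leaving out each array. Those that leave out HCT116, 6 h or untreated arrays, or the 12 and 18 h copper arrays, and the comparison with 0 h arrays, were chosen after seeing the data.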

Additional observations from a re-analysis of the deposited data

Results flagged for a closer look

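The change from 2 to 4 h of copper differed between BEAS-2B and HCT116, by the test of the difference itself, for 264 genes, 124 with the higher and 140 with the lower change in BEAS-2B. Dose differed with line, and the 2 cannot be told apart. All values here are log2 differences, BEAS-2B minus HCT116, for the named genes among them.

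Among secreted and matrix proteins the difference was MMP3 2.54, SCG5 2.50, ADAMTS1 1.63 and MMP10 1.42, and for cytoskeletal proteins DST 1.31, MICALCL 1.63 and XIRP1 1.57. For chaperone genes it was HSPA7 2.04 and DNAJA4 1.41 in one direction and HSPA1A -3.77 and HSPA6 -0.88 in the other. HSPA6 thus rose in both lines, by 3.85 in BEAS-2B and 4.74 in HCT116. At 4 h HSPA1A and HSPA6 lay near the top of the scale in BEAS-2B, and whether that limited their change was not tested. For signalling and adaptor genes it was PDE4D 2.02, KBTBD8 1.67, RGS2 0.94, RFTN1 0.80 and VLDLR 1.05. For transcription factors and nuclear proteins the higher changes were CEBPA 2.32, BCOR 2.15, KLF4 1.37 and AKIRIN1 1.10, and for replication and cell cycle genes GINS4 1.04 and E2F8 0.99. MEDAG differed by 0.74. CEBPA was not detected in BEAS-2B, so its difference is that of HCT116. E2F8 was undetected on both BEAS-2B arrays of 4 h, and MICALCL, XIRP1, MMP10 and RGS2 on both of 2 h, so that their BEAS-2B changes are only bounds and these differences are not exact. MMP3, ADAMTS1, XIRP1, MMP10, MEDAG and VLDLR were undetected on all 4 HCT116 arrays. SCG5 and PDE4D were undetected on both HCT116 arrays of 4 h, and PDE4D was detected on only 1 of those of 2 h, so their differences are not exact either.

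Among the lower changes in BEAS-2B were the early genes EGR3 -2.89, ARC -2.45, EGR1 -1.76, KLF2 -1.48, FOSB -1.14 and JUN -1.11. Of 21 immediate early and AP-1 genes, 9 had a lower change in BEAS-2B, 1 a higher one and 11 no called difference. Over all genes the shares were 0.954% lower and 0.845% higher. Stress response genes gave DDIT3 -1.74, TRIB3 -1.08, ATF3 -0.75, GADD45B -1.24 and GADD45A -0.79, and the phosphatase DUSP5 -0.77. Chemokines and receptors gave CXCL8 -1.29, CCL2 -1.41 and KIT -1.31. The rest were ARL14 -2.71, MT1B -2.50, MIR503HG -1.25 and KRABD3 -0.80. ARL14 and MT1B were not detected in BEAS-2B, and CCL2, MIR503HG and KRABD3 on none of the 4 HCT116 arrays. KIT was undetected on both HCT116 arrays of 2 h and detected on 1 of those of 4 h.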

How the results depend on the processing

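The count of 893 genes between 2 and 4 h was 823 to 1246 under the other normalization, filters, probe summary, offset, eBayes setting, BEAS-2B arrays alone, replicate block and without the 12 and 18 h arrays, and 353 with a fit on the 4 arrays only, of which 302 were among the 893. The authors' quantile-normalized values gave 7 calls for the untreated change, 343 with the untreated change subtracted, 242 for 6 h against 4 h and 412 between lines. An offset of 50 gave 9, 313, 249 and 402. The trended robust setting gave 12, 303 and 237 for the former 3. BEAS-2B arrays alone gave 90 with the untreated change subtracted and 66 for 6 h against 4 h, which was 243 without the 12 and 18 h copper arrays (chosen after seeing the data). The untreated change had 2 calls with detection on at least 8 arrays, 3 with no filter and 2 with the mean of probes. A same-hour baseline called 392 genes at 2 h and 2184 at 4 h, against 1652 and 3672. The cause of these shifts was not tested, except that fewer arrays enter some fits.

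Leaving out 1 array gave 376 to 462 for 4 h against 2 h, 46 to 71 with the untreated change subtracted, 31 to 60 for 6 h against 4 h, 129 to 193 between lines, 770 to 886 in HCT116, 682 to 1415 at 2 h and 2434 to 3437 at 4 h. For the 137 named called genes, 1667 of 1917 values kept direction and call, 250 kept direction and lost the call, and 0 reversed. The reversals were in genes that were not called. HSP90AA1 was at 0.16 with the mean of probes. Ranges without 1 array were -0.013 to 0.11 for HSPA8, at -0.0053 without 4 h replicate 2, -0.030 to 0.0017 for ATF4, -0.10 to 0.18 for ATOX1, at -0.0013 without 4 h replicate 1, -0.33 to 0.070 for ATP7B, -0.042 to 0.13 for MT1B, -0.16 to 0.29 for COX11, -0.094 to 0.11 for COX17, at -0.0046 without 2 h replicate 2, -0.12 to 0.36 for CCHCR1 and -0.10 to 0.017 for JUN.

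Arrays with the same replicate number did not deviate together (median r 0.0018 over 21 pairs of BEAS-2B groups, from -0.034 to 0.053), so the numbers do not pair them. With the replicate number as a block, 823 genes were called between 2 and 4 h, 97 with the untreated change subtracted, 102 for 6 h against 4 h and 231 between lines. Signal over background limits genes undetected on both arrays of a time to bounds.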

Other observations

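Several gene groups not described above moved in part between 2 and 4 h of copper. For comparison, 2.75% of all genes rose and 3.33% fell. Of 17 autophagy genes, 5 rose and none fell (median 0.24), and leaving out 1 array gave 2 to 4. MAP1LC3B, the LC3 protein of autophagosome membranes, had signals of 9.45 and 9.37 at 2 h and 10.48 and 10.43 at 4 h (log2 1.05 ± 0.13, limma adjusted p = 0.000101). GABARAPL1, its relative, rose by 0.90 and SQSTM1, a cargo receptor, by 0.42. Of 19 hypoxia genes, 5 rose and none fell (median 0.14), with 2 to 3 risers when an array was left out. NDRG1, a stress-induced gene of this group, went from 7.21 and 7.12 to 8.56 and 7.96, and PFKFB3, a regulator of glycolysis, rose by 0.51. ANGPTL4, a lipase inhibitor, rose by 1.49 on the probe used and by as little as 0.32 on another probe. Untreated ANGPTL4 went from 6.46 at 2 h to 7.38 at 4 h, on 1 array each. With that change subtracted, the rise of 0.57 was not called.

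Of 19 genes of the BCL2 family and caspases, 3 rose and 1 fell, with 1 to 2 risers when an array was left out. PMAIP1, the BH3-only protein NOXA, went from 10.01 and 10.16 to 11.26 and 10.93 (log2 1.00 ± 0.14, adjusted p = 0.000251), and HRK, another BH3-only protein, from 5.78 and 5.24 to 6.55 and 6.53. Of 10 Krüppel-like factors, 3 rose and KLF2 fell, again with 1 to 2 risers without 1 array. KLF4 rose by 1.07 on the probe used and was at 0.28 on its other probe, while KLF13 rose by 0.80 and KLF6 by 0.37. Of 19 genes that respond to TGF-beta, BMP, Notch and Wnt signals, 3 rose and 2 fell (2 to 3 and 1 without 1 array). SMAD7, an inhibitor of TGF-beta receptors, went from 8.89 and 8.84 to 10.15 and 10.20, and SKIL, a SMAD corepressor, rose by 1.32 on the probe used and was at 0.01 on the other. Of 15 splicing factors and CLK kinases, 3 rose and 1 fell (1 to 2 and 0 without 1 array): beside CLK1, RBM39 rose by 0.74 and TRA2A by 0.43, and SRSF4 fell by 0.41. BTG1, an antiproliferative gene, rose from 9.88 and 9.77 to 10.74 and 10.77.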
